A study of Mus musculus with 6 samples.

Results

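The regions described here are the telomere-proximal ends of the 19 mouse autosomes, taken as the last 2 Mb of each chromosome in a table of CpG methylation. All cytosines within 2000 kb of the last listed cytosine of their chromosome were members, whatever their methylation. Calls of both strands were summed over tiles of 1 kb, and a tile was used if it held 3 or more CpGs with 10 or more calls in every sample (6 in all). This left 4734 tiles at the ends, 1.43% of the 330110 tiles used over the whole table, from 31867 end tiles with any listed CpG. DNA came from Oct4-GFP positive male germ cells, flow-sorted from single pups at postnatal day 2.5 on a mixed strain background, all offspring of Tex15+/- parents. The groups were Tex15KO (Tex15-/-, pups 3 and 16), Tex15HT (Tex15+/-, pups 7 and 18) and Tex15WT (Tex15+/+, pups 8 and 9), with 2 pups each. Tex15HT and Tex15WT together are called the controls, and the study asks whether retrotransposons lose methylation in germ cells without Tex15.

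Mouse chromosomes carry the centromere next to one end, so that each has a centromere-proximal and a telomere-proximal end. The telomere repeat itself holds no CpG, and the sequence beside it is often rich in genes, CpG islands and segmental repeats. In male germ cells DNA methylation is erased in the early germ line and laid down again in the fetal testis before birth, while most CpG islands at gene starts stay unmethylated. TEX15 is a nuclear partner of the PIWI machinery of fetal male germ cells, in which small RNAs direct methylation to young retrotransposons.

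The starts of 3 genes close to chromosome ends show the range of states found there, and their sequences are printed for that reason. They are the RefSeq promoters of GRCm38.p6 (250 bases before and 50 after a gene's start). They were placed in mm9 by the match of their CpG positions to those listed. GRCm38 coordinates served to choose the promoters that were tried, not their place in mm9. CpGs are in capitals. Tmem267, at chr13:120277030-120277329 on the plus strand and 7.08 kb from the end, was partly methylated. Noc2l, at chr4:155609869-155610168 on the plus strand and 19.3 kb from the end, was unmethylated. Rfc3, at chr5:152453734-152454033 on the minus strand and 83.1 kb from the end, was unmethylated and lies 35.7 kb from the end tile with the largest positive difference of Tex15KO from the controls.
Tmem267: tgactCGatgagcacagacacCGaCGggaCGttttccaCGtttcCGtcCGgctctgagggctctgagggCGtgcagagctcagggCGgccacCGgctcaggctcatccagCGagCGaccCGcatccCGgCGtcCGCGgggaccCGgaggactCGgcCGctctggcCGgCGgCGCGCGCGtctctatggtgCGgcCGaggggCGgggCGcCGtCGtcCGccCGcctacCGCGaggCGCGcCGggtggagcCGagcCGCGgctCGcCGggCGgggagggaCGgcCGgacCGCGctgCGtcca
Noc2l: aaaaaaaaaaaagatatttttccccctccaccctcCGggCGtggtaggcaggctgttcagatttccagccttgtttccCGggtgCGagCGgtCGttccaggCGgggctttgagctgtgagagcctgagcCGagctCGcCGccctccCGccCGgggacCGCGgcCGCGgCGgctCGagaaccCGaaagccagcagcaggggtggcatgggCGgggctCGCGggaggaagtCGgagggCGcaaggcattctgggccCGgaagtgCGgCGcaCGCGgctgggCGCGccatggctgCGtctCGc
Rfc3: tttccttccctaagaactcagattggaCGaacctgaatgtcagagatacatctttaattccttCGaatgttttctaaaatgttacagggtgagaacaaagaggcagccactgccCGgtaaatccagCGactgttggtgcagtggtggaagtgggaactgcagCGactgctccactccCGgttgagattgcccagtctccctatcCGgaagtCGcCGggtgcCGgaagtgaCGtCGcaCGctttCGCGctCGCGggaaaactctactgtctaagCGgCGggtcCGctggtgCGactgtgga

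The Tmem267 promoter holds 50 CpGs in 300 bases, of which 47 are in the table. A promoter of the RefSeq set holds 7 CpGs at the median, and 3.91% of the 32851 promoters hold 40 or more. The Noc2l promoter holds 33 CpGs with 16 listed, and the Rfc3 promoter 21 with 16 listed.

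The samples held between 27495658 (Tex15KO 3) and 52935635 (Tex15KO 16) calls over 10025464 cytosines. The library of Tex15KO 3 stood apart, since 74.4% of the cytosines had 0 calls there, against 1.71% in Tex15KO 16 and 4.82 to 10.2% in the controls. Its covered cytosines had a median of 8 calls, against 4 in Tex15KO 16 and 2 or 3 in the controls. A tile level in Tex15KO 3 can therefore rest on few molecules. This library also limits which tiles were used, since leaving it out raised the end tiles from 4734 to 8082. Only some results are given without it as well. Levels of single ends, CpG classes, centromere-proximal ends and promoters are given only for tiles or promoters with it included. As marks of male germ cells, promoters of 2 of the 8 maternally imprinted genes looked for could be placed. The Peg3 promoter lay at 9.33% in Tex15KO 16, at 0 and 0% in Tex15HT and at 9.09 and 2.56% in Tex15WT, with 0 calls in Tex15KO 3. The Plagl1 promoter lay at 100% in Tex15KO 3 (24 calls), 19.4% in Tex15KO 16, 3.45 and 0% in Tex15HT, and 0 and 11.1% in Tex15WT. Somatic cells carry both states of these promoters in like amounts, and the controls were well below that level.

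Over the chromosome ends as a whole, the methylation levels of the 3 genotypes overlapped. As the mean over tiles, in which each tile counts equally, the level was 73.0% in Tex15KO 3 and 72.4% in Tex15KO 16, against 73.3 and 72.5% in Tex15HT and 72.8 and 70.7% in Tex15WT. As the share of all calls read as C, which weights tiles by their depth, it was 56.1 and 50.3% in Tex15KO, against 52.5 and 51.0% in Tex15HT and 52.7 and 50.2% in Tex15WT. On either scale the pups of at least 1 genotype lay farther apart than the genotype means did. The level of calls was higher by 1.75 percentage points in Tex15KO than in Tex15WT (exact permutation test, p = 0.667, where 0.333 is the smallest possible p) and by 1.60 than in the controls (exact permutation test, p = 0.467, smallest possible p 0.0667). The difference was 1.45 points between Tex15KO and Tex15HT (exact permutation test, p = 1) and 0.31 points between Tex15HT and Tex15WT (exact permutation test, p = 1). Without Tex15KO 3 the sign of the differences that involve Tex15KO turned round, to -0.37 against Tex15WT and -0.63 against the controls. With n = 2 per group no such test can reach 0.05.

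The ends were less methylated than the rest of the autosomes when tiles counted equally. The mean over tiles was 72.4% at the ends and 77.0% over the 324408 other autosomal tiles, as averages of the 6 samples. The end was lower in 6 of 6 samples, by 4.56 points (exact sign-flip test over the samples, two-sided p = 0.0312, the smallest possible). Tiles under 20% in the controls made up 16.5% of the tiles at the ends and 11.2% elsewhere, and tiles over 80% made up 69.5% and 73.9%. The ends also held more CpG-dense tiles, 9.02% with 20 or more CpGs against 5.40% elsewhere. With the CpG number of the tile held equal, the ends were lower by 1.41 points, 72.4% against 73.8% (exact sign-flip test, p = 0.0312).

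The difference between ends and rest depended on how tiles were weighted. By calls, the measure planned as the main one, the ends lay at 52.1% and the rest at 51.6%. This was a difference of 0.50 points (exact sign-flip test, p = 0.562). Without the most deeply read cytosines (top 0.1% by coverage in a sample), the ends were lower by 10.6 points by calls (exact sign-flip test, p = 0.0312), and this held in 6 of 6 samples with values between -10.9 and -10.3. At equal CpG number the level by calls was 1.95 points higher at the ends (exact sign-flip test, p = 0.0312), and 1.56 points lower without those deep cytosines. The mean over tiles, planned as an alternative, is therefore given for all other results unless stated, a choice made with these results known. The difference between ends and rest by calls averaged -1.32 points in Tex15KO and 1.41 points in the controls (difference -2.73, exact permutation test, p = 0.2).

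**Figure D1:**
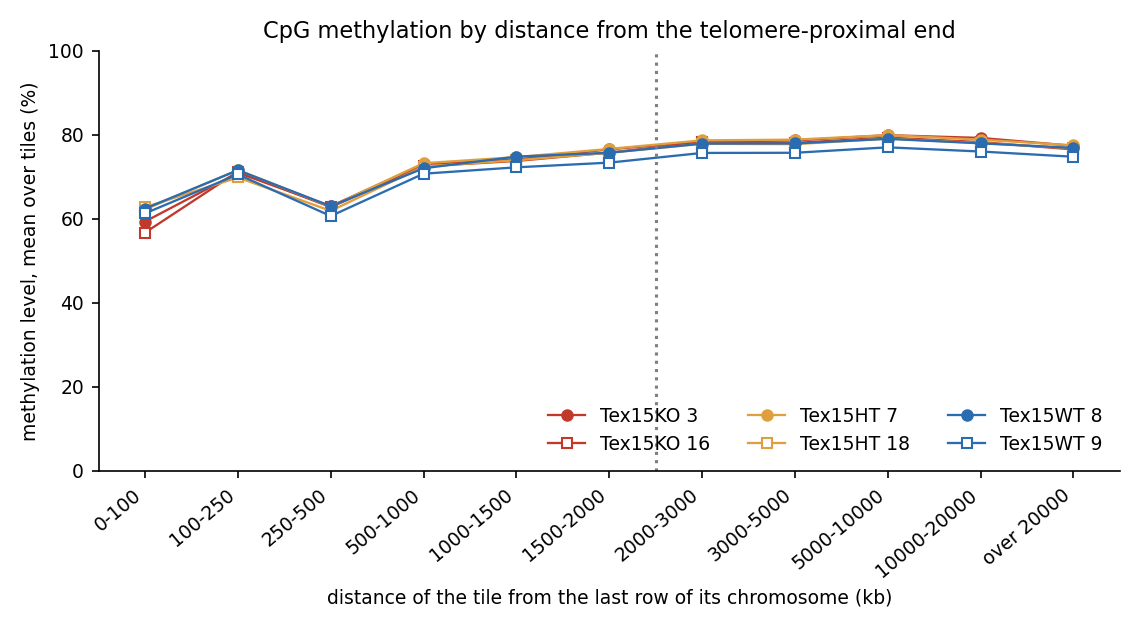
Methylation level (mean over tiles, percent) of each of the 6 samples by distance from the last listed cytosine of the chromosome (kb), with points at the bins and a dotted line at the 2000 kb limit of the ends. All samples are lowest in the first 500 kb and reach 77.0 to 79.9% at 5000 to 10000 kb; within 100 kb both Tex15KO samples (59.4 and 56.7%) lie below the controls (61.3 to 62.8%).

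Methylation was lowest close to the ends. Tiles within 500 kb averaged 64.2 and 63.6% in Tex15KO, 64.9 and 64.1% in Tex15HT, and 65.0 and 63.3% in Tex15WT. Tiles between 1500 and 2000 kb from the end averaged 76.5 and 75.8% in Tex15KO, 76.6 and 75.7% in Tex15HT, and 75.7 and 73.4% in Tex15WT. The near tiles were lower in 6 of 6 samples, and the groups overlapped in both bins. By calls, the difference was -14.8 points, 44.4% near against 59.1% far (exact sign-flip test over the samples, p = 0.0312, the smallest possible). With the CpG number held equal the mean over tiles was lower by 9.54 points near the end (exact sign-flip test, p = 0.0312), a setting chosen after the data were seen.

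The profile was not smooth. It had minima within 100 kb (60.8%, 183 tiles) and at 250 to 500 kb (62.4%, 442 tiles), with 71.0% between them (208 tiles at 100 to 250 kb). The 2 minima differed in kind. At 250 to 500 kb, 26.9% of the tiles lay under 20% in the controls and 14.5% held 20 or more CpGs, the highest shares of any bin. Within 100 kb, 36.1% of the tiles lay between 20 and 80% in the controls, against 12.1 to 20.2% in the other 5 bins of the ends and 13.2 to 14.9% farther away. Tiles of intermediate level were thus most frequent in the outermost 100 kb. In DNA pooled over sorted cells, partly methylated molecules and a mixture of cells with different states cannot be told apart. Of the end tiles with any CpG, 12.1% were deep enough to be used within 100 kb and 19.4% at 1500 to 2000 kb, so the outermost values rest on a smaller share of the sequence. In the 655 end tiles with at least 30 calls in each sample the direction was the other one, with a difference of 3.12 points by calls (exact sign-flip test, p = 0.25).

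**Figure D2:**
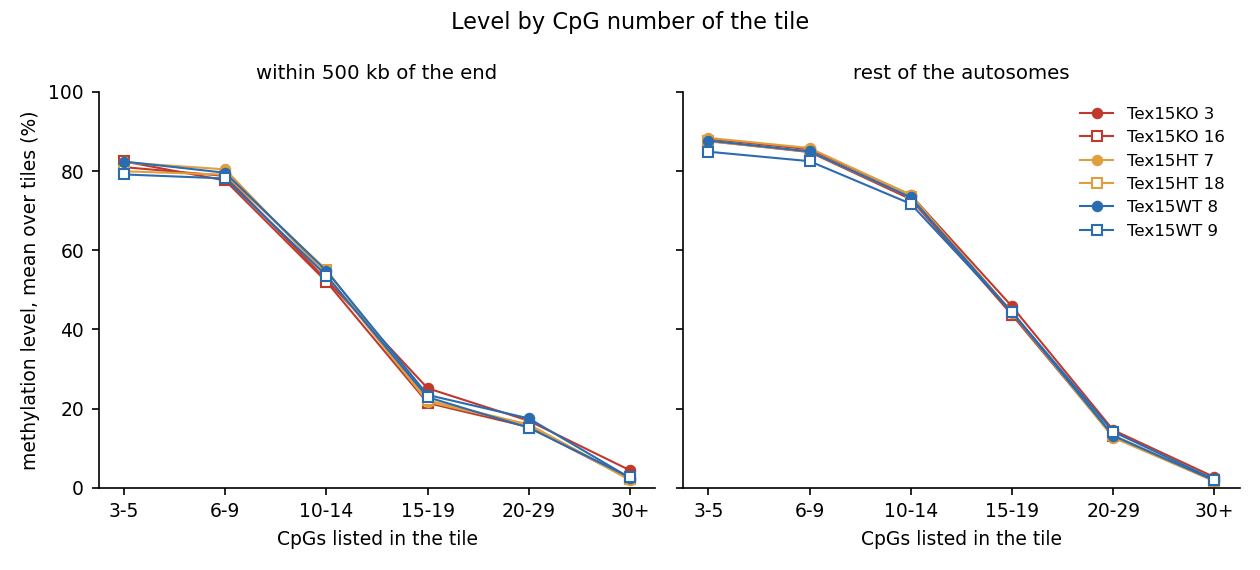
Methylation level (mean over tiles, percent) by the number of CpGs listed in the tile, for each of the 6 samples, in tiles within 500 kb of the end (left) and in the rest of the autosomes (right). Levels drop with CpG number in both, and tiles of 10 to 14 CpGs average 53.6% near the ends and 73.2% elsewhere.

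The lower level near the ends was concentrated in tiles of medium CpG number. Tiles of 10 to 14 CpGs within 500 kb averaged 52.5 and 52.1% in Tex15KO, 53.8 and 55.1% in Tex15HT and 54.8 and 53.6% in Tex15WT. In the rest of the autosomes such tiles averaged between 71.8 and 74.0% over the 6 samples. Tiles of 15 to 19 CpGs averaged 22.8% near the ends and 44.5% elsewhere, as means of the 6 samples. Tiles of 3 to 5 CpGs differed less, 81.2% against 87.4%. Tiles of 30 or more CpGs, the densest class, lay at 2.65% near the ends and 1.98% elsewhere.

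The centromere-proximal ends, the first 2 Mb of the listed sequence of each autosome, were compared as the other kind of chromosome end. Telomere-proximal ends were more methylated than these in 6 of 6 samples, 72.4% against 70.5% over 4464 tiles (difference 1.97 points, exact sign-flip test, p = 0.0312). In the outermost 100 kb the levels were 60.8% and 56.2% (difference 4.56 points, exact sign-flip test, p = 0.0312). Intermediate tiles made up 36.1% of the outermost 100 kb on the telomere side and 77.5% on the centromere side. The 2 sides differed greatly in depth. The outermost 100 kb held 12326 to 22562 calls per sample in 183 telomere-side tiles. On the centromere side they held 727092 to 2002343 calls in 271 tiles. Whether several copies share these deeply read places in the build was not tested.

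**Figure D3:**
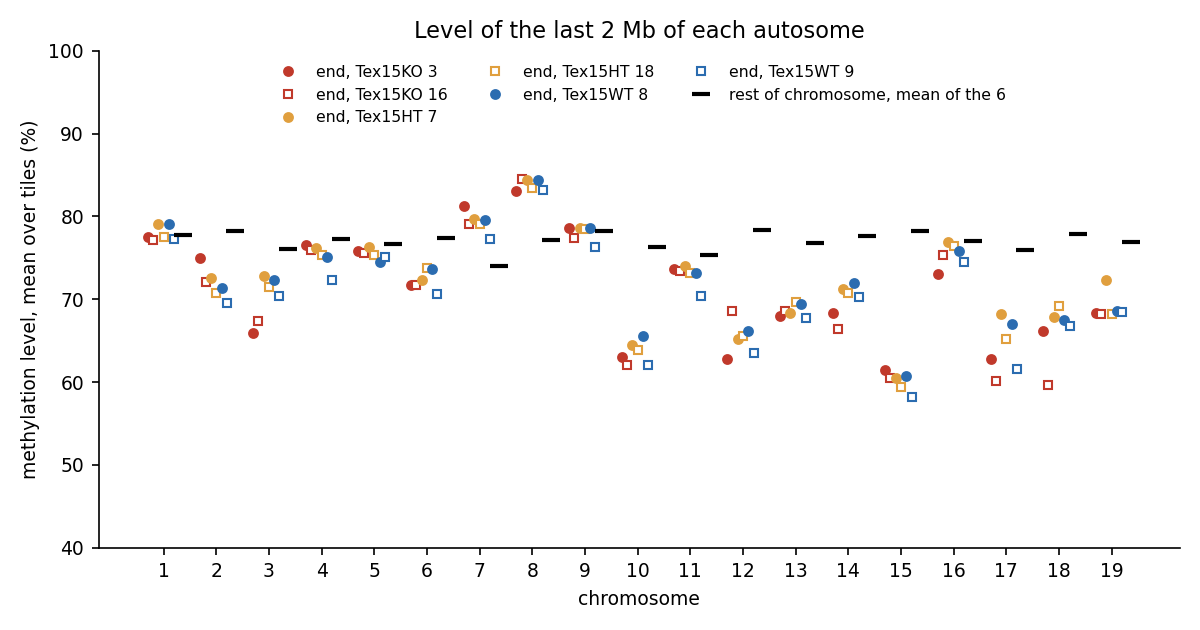
Methylation level (mean over tiles, percent; the axis starts at 40%) of the last 2 Mb of each autosome in the 6 samples, with a black bar for the rest of that chromosome as the mean of the samples. Ends of chromosomes 7 and 8 lie above their chromosome, and the end of chromosome 15 lies farthest below it (60.1% against 78.2%).

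The 19 ends differed widely from each other. Their levels ran between 60.1% (chromosome 15) and 83.8% (chromosome 8), with a median of 71.9%, and the number of tiles between 52 (chromosome 18) and 675 (chromosome 4). In 14 chromosomes the end was lower than the rest of the chromosome in 6 of 6 samples, in 2 it was higher in 6 of 6, and in chromosomes 1, 5 and 9 the samples were split. The end of chromosome 15 was lower than its chromosome by 18.1 points, and 0 of the 44 other 2 Mb windows of that chromosome with enough tiles lay lower. It was followed by chromosomes 12 (-13.1 points, 1 of 52 windows lower), 10 (-12.8, 2 of 63), 17 (-11.8, 7 of 44) and 18 (-11.7, 1 of 42). Other ends among the 14 lay inside the range of their windows. On chromosomes 4, 11 and 16, 26 of 71, 18 of 58 and 20 of 45 windows lay lower. Agreement of the 6 samples thus does not show that an end stands out on its chromosome. The higher ends were those of chromosomes 8 (83.8% against 77.2%, 55 of 61 windows lower) and 7 (79.3% against 74.0%, 45 of 64 windows lower). Over the 19 ends, Pearson's r between the level and the mean number of CpGs per tile was -0.11, a description over chromosomes of the same 6 libraries.

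Differences between genotypes at single ends were small beside the differences between ends. The mean of Tex15KO minus the mean of the controls ran between -5.12 points (chromosome 3) and 2.42 points (chromosome 2). Both Tex15KO samples lay below all 4 controls at 3 of the 19 ends and above all of them at 0, beside 9.5% and 4.88% of the 1126 autosomal windows of 2 Mb with 50 or more tiles. The end of chromosome 3 lay at 65.9 and 67.4% in Tex15KO, 72.9 and 71.5% in Tex15HT and 72.3 and 70.3% in Tex15WT. The end of chromosome 18 lay at 66.1 and 59.7% in Tex15KO, 67.9 and 69.2% in Tex15HT and 67.5 and 66.7% in Tex15WT, and chromosome 14 was the third. In each of these 3 Tex15KO did not overlap the controls, which gives the smallest possible exact permutation p of 0.0667 before any adjustment. These ends hold few tiles, 66 on chromosome 3, 52 on chromosome 18 and 78 on chromosome 14.

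In edgeR's quasi-likelihood test over 1214 autosomal windows of 2 Mb, 0 of the 19 end windows were called in Tex15KO against Tex15WT (adjusted p under 0.05; 0.906% of all windows were called). The same held against the controls, where 1.32% of all windows were called. At an unadjusted p under 0.05 edgeR gave 1 end window lower and 0 higher in each of these comparisons, beside 4.78% lower and 1.15% higher of all windows against Tex15WT and 6.1% and 1.15% against the controls. Adjusted as before, limma called 0 end windows in each, beside 1.32% and 1.65% of all windows. The lowest adjusted p was that of chromosome 18, 0.363 by edgeR and 0.177 by limma against the controls. The window calls depended on which Tex15KO pup was in the fit. Without Tex15KO 3, edgeR called the window of chromosome 18 lower, with an adjusted p of 0.0257 against the controls and 0.0357 against Tex15WT, beside 4.03% and 3.45% of all windows. Without Tex15KO 16, that window had an adjusted p of 0.319 in each comparison, and 5 other end windows (chromosomes 1, 6, 7, 9 and 19) were called higher against the controls, beside 27.5% of all windows. In these fits Tex15KO is 1 library, assumed to vary like the other groups, so the spread between Tex15KO pups does not enter the p. In Tex15HT against Tex15WT 0 end windows were called by edgeR or limma, beside 0% of all windows, and 0 reached an unadjusted p under 0.05 in edgeR.

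Gene starts rich in CpGs were nearly all unmethylated at the ends, in every genotype. Placing needed at least 10 listed CpGs, and a RefSeq promoter holds 7 CpGs at the median, so CpG-poor starts were not read. Candidates were 795 RefSeq promoters with enough CpGs, taken from a wider stretch of each chromosome end in GRCm38 than the 2 Mb searched. Of these, 206 promoters of 176 genes found a single place, and 0 of the same patterns read in reverse did. The share placed is therefore not the yield within these ends. Of the 102 genes with 10 or more calls in each sample, 100 lay under 10% in the controls and 2 over 50%. The Noc2l promoter, of a regulator of histone acetylation, lay at 0 and 0% in Tex15KO, 0 and 2.08% in Tex15HT and 0 and 0% in Tex15WT, from 30 to 65 calls per sample. The Rfc3 promoter, of a subunit of the clamp loader of DNA replication, lay at 0 and 0% in Tex15KO, 0 and 2.56% in Tex15HT and 4.76 and 0% in Tex15WT. The median difference of Tex15KO from the controls over the 102 genes was -0.13 points, and 0 genes differed by over 10 points in either direction. Each gene entered with a single start. Another start of Prkcz, left out because Tex15KO 3 had 4 calls there, lay at 75 and 65.7% in Tex15KO. The controls lay at 21.1 to 40% at that start. Small values above 0 in Tex15KO came at some genes from Tex15KO 3: the Osbpl2 promoter lay at 17.4% there (23 calls) and at 0.78% in Tex15KO 16, against 0% in all 4 controls.

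The 2 methylated gene starts were an overlapping pair on chromosome 13, Tmem267 and 3110070M22Rik, which start in opposite directions. Tmem267 lay at 68.5 and 70.1% in Tex15KO, 65.1 and 76.2% in Tex15HT, and 73.6 and 63.7% in Tex15WT, from 482 to 1235 calls per sample. The groups overlapped fully. 3110070M22Rik lay at 77.1 and 69.5% in Tex15KO, 62.4 and 78.0% in Tex15HT, and 74.5 and 66.2% in Tex15WT. Both stand in the last 8 kb of chromosome 13, where 8 adjoining tiles with 212 CpGs (chr13:120277001-120285000) were read far more deeply than other tiles, with 3249 to 8939 calls per sample. Their mean level was 65.6 and 72.3% in Tex15KO, 70.8 and 68.2% in Tex15HT and 71.3 and 70.0% in Tex15WT. Whether several copies share this place in the build was not tested.

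Unmethylated stretches at or under 10% in all 4 controls numbered 355 and took up 514 tiles. The longest was chr11:120095001-120100000, 5 tiles with 188 CpGs, at 11.5 and 1.32% in Tex15KO, 1.15 and 1.66% in Tex15HT, and 0.92 and 1.0% in Tex15WT. Tex15KO 3 alone was raised there, with 44.6% in 1 of the tiles, against 2.56% or less in Tex15KO 16. The next 2 by length and CpG number were chr2:180625001-180629000 (157 CpGs) and chr9:122478001-122482000 (146 CpGs), between 0 and 2.23% in all samples. The last used tile of each chromosome, 0.15 to 21.7 kb from the end, had no common state: the tiles of chromosomes 4 and 6 lay at 0 to 1.28% in all 6 samples, and those of chromosomes 9 and 19 at 80 to 100%.

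Tex15KO lay farthest from the controls in the outermost 100 kb, by a difference that did not pass its test after adjustment. The level there was 59.4% in Tex15KO 3 and 56.7% in Tex15KO 16, against 62.2 and 62.8% in Tex15HT and 62.4 and 61.3% in Tex15WT. Both Tex15KO samples lay below all 4 controls, by 4.15 points on average (exact permutation test, p = 0.0667, the smallest possible; p = 0.4 adjusted over the 6 bins of the ends). In the other 5 bins Tex15KO differed from the controls by 0.04 to 0.78 points, with exact permutation p between 0.533 and 1. The difference within 100 kb was -3.25 points without Tex15KO 3 (310 tiles), -2.74 without Tex15KO 16 (185 tiles) and -2.95 without chromosome 18 (173 tiles), but 1.96 points in the 32 tiles with 30 calls in each sample. Within 100 kb both Tex15KO samples were below all controls in 14.2% of the 183 tiles, against 4.0 to 5.77% of the tiles in the other bins. Over all end tiles this share was 4.94% (234 tiles), beside 4.32% of all tiles of the table, and both lay above all controls in 421 tiles, 8.89%, beside 8.24%.

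**Figure D4:**
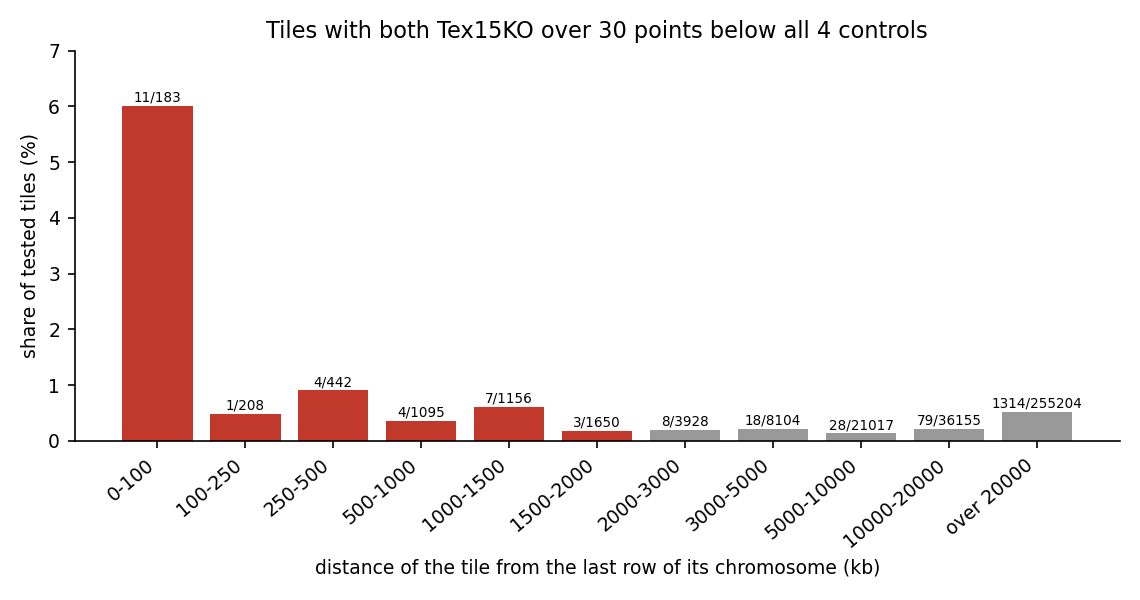
Share of tiles (percent) in which each Tex15KO sample was more than 30 points lower than every control, by distance from the end (kb), with red bars for the ends, grey bars for the rest of the autosomes and the counts above the bars. The share is 6.01% within 100 kb (11 of 183 tiles) and 0.13 to 0.90% in the other bins.

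Large losses were counted as tiles in which each Tex15KO sample was more than 30 points lower than every control. They numbered 30 of the 4734 end tiles (0.634%) and 1447 of the 324408 other autosomal tiles (0.446%), beside 0.456% of all tiles of the table. Large gains of the same size numbered 0 at the ends and 63 elsewhere, beside 0.0194% of all tiles. Over all end tiles the share of losses is thus near the background. By distance, 11 of the 30 lay within 100 kb of the end, where they made up 6.01% of 183 tiles. The bins from 100 to 2000 kb held 1, 4, 4, 7 and 3. At the centromere-proximal ends, large losses numbered 6 of 271 tiles (2.21%) in the outermost 100 kb. Over the 2 Mb there they numbered 35 of 4464 tiles (0.784%), a higher share than at the telomere-proximal ends. The limit of 100 kb was singled out with these counts known and has no test.

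The 11 outermost losses lay on 6 chromosomes, 5, 6, 9, 11, 16 and 18, with 4 of them on chromosome 18. Without chromosome 18 the count was 7 of 173 tiles (4.05%), and without Tex15KO 3 it was 14 of 310 tiles (4.52%), against 0.669% of the tiles between 100 and 2000 kb in that setting. Without Tex15KO 16 the counts were 22 of 185 tiles (11.9%) and 5.34% of the tiles farther in, so that the losses of Tex15KO 3 alone were more frequent at all distances. Large gains in that setting numbered 9 of the 185 tiles and 85 of the 4570 farther in. Tex15KO 3 alone thus differed from the controls in both directions there. Without Tex15KO 3, large gains numbered 0 of the 310 tiles and 3 of the 7772 farther in. In the 32 tiles within 100 kb that had 30 calls in each sample, 0 losses were found. These alternatives for the outermost 100 kb were chosen after the data were seen. Without the 11 tiles, the outermost 100 kb lay at 62.6 and 59.6% in Tex15KO, 61.2 and 61.7% in Tex15HT and 61.1 and 60.4% in Tex15WT, a description in which Tex15KO 3 lay above the controls and Tex15KO 16 below them.

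**Figure D5:**
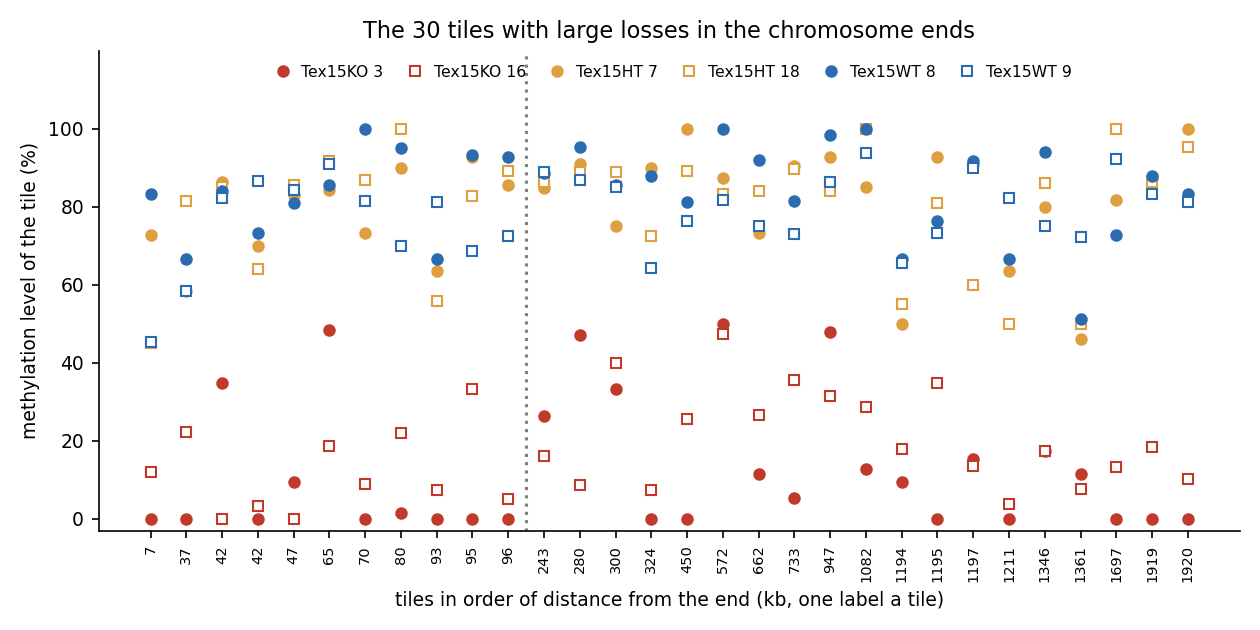
Methylation level (percent) of the 30 end tiles with large losses in each sample, in order of distance from the end (kb, on the axis), with a dotted line between tiles within 100 kb and those farther in. In every tile both Tex15KO samples lie at 50% or lower and the controls at 45% or higher.

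In the 30 tiles the level averaged 12.7% in Tex15KO 3 and 17.9% in Tex15KO 16, against 80.8 and 79.9% in Tex15HT and 84.1 and 78.3% in Tex15WT. These means describe tiles picked by the same values. They formed 27 separate stretches on 13 chromosomes, held 7.5 CpGs at the median, and 0 of them held 20 or more CpGs. The nearest placed promoter was 41.7 kb or more away from each tile on the chromosome ends that had one. The rule can only take tiles over 30% in every control, which leaves out most CpG-dense tiles.

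The largest decreases were named by a fixed rule, the 8 tiles with the largest difference of means among those with both Tex15KO samples below all controls. All 8 were among the large losses counted above. Of the 8, 4 lay within 100 kb of an end, where 183 of the 4734 end tiles lie. This repeats part of the count of large losses by distance and is no separate observation. On chromosome 6, the tile chr6:149420001-149421000 (17 CpGs, 96.3 kb from the end) lay at 0 and 5.19% in Tex15KO, 85.7 and 89.1% in Tex15HT, and 92.9 and 72.5% in Tex15WT, from 24 to 77 calls per sample. Tex15KO lay far below the controls. The adjoining tile was low in Tex15KO too, at 0 and 33.3% against 68.8 to 93.3% in the controls. On chromosome 16, the tile chr16:98247001-98248000 (70.0 kb from the end) lay at 0 and 8.89% in Tex15KO, 73.3 and 86.8% in Tex15HT, and 100 and 81.5% in Tex15WT. On chromosome 18, the tile chr18:90723001-90724000 (47.0 kb from the end) lay at 9.46 and 0% in Tex15KO, 82.9 and 85.7% in Tex15HT, and 81.0 and 84.2% in Tex15WT. On chromosome 9, the tile chr9:123995001-123996000 (80.3 kb from the end) lay at 1.54 and 22.0% in Tex15KO, 90 and 100% in Tex15HT, and 95 and 70% in Tex15WT.

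Chromosome 17 held 3 of the other 4. The tile chr17:93352001-93353000, 1920 kb from the end, lay at 0 and 10.3% in Tex15KO, 100 and 95.2% in Tex15HT, and 83.3 and 81.2% in Tex15WT. Its neighbour chr17:93353001-93354000 lay at 0 and 18.3% in Tex15KO, 87.5 and 86.4% in Tex15HT, and 88 and 83.3% in Tex15WT. These adjoining tiles, with 7 and 11 CpGs, were low in both Tex15KO pups and high in all 4 controls. The tile chr17:94947001-94948000 (324 kb from the end) lay at 0 and 7.32% in Tex15KO, 90 and 72.5% in Tex15HT, and 87.8 and 64.3% in Tex15WT. On chromosome 14, the tile chr14:123482001-123483000 (1697 kb from the end) lay at 0 and 13.3% in Tex15KO, 81.8 and 100% in Tex15HT, and 72.7 and 92.3% in Tex15WT, from only 11 to 16 calls per sample.

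The 4 largest increases were named by the same rule in the other direction. The largest, chr5:152489001-152490000, 47.5 kb from the end and 35.7 kb from the Rfc3 start, lay at 100 and 52.2% in Tex15KO, 21.7 and 22.9% in Tex15HT and 18.2 and 5.88% in Tex15WT. The tile chr5:152495001-152496000, 41.7 kb from the end, was among the large losses, at 34.8 and 0% in Tex15KO against 82.1 to 86.4% in the controls. Neighbouring tiles on the same end thus differed in opposite directions. The other 3 increases lay on chromosomes 15, 6 and 12, and in each of them 1 Tex15KO sample was close to a control: on chromosome 12, for example, 47.1 and 97.1% in Tex15KO stood against 38.9 and 27.6% in Tex15HT and 18.8 and 30% in Tex15WT. The adjusted p of all 4 was 1 by edgeR against the controls.

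Fitted over all 330110 tiles, edgeR called 0 end tiles in Tex15KO against Tex15WT (adjusted p under 0.05; 0.00969% of all tiles were called). At an unadjusted p under 0.05, 71 end tiles were lower and 83 higher, beside 1.26% and 1.45% of all tiles. limma called 9 end tiles lower in this comparison, beside 0.0963% of all tiles. Against the controls edgeR called 1 end tile lower, beside 0.0379% of all tiles, and limma 15 lower, beside 0.271%. The tile called by edgeR was chr6:149420001-149421000, with an adjusted p of 0.0421 by edgeR and 0.00451 by limma against the controls, lower in 2 of 2 Tex15KO samples. Its edgeR call was lost when any 1 of the 4 controls was left out (adjusted p 0.768 to 1) and had an adjusted p of 0.000903 without Tex15KO 3 and 0.00016 without Tex15KO 16, in fits where the spread comes from the controls alone and 0.159% and 6.69% of all tiles were called. The other 7 named decreases had edgeR adjusted p between 0.0512 and 0.575 against the controls.

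Of the 15 tiles that limma called against the controls, 7 lay among the 183 tiles within 100 kb (3.83%) and 8 among the other 4551 end tiles (0.176%), counts that share their contrast with the large losses. Against Tex15HT edgeR called 0 end tiles and 0.00576% of all tiles. At an unadjusted p under 0.05, 67 end tiles were lower and 51 higher (1.27% and 0.939% of all tiles), and limma called 6 end tiles lower, beside 0.0612% of all tiles. In Tex15HT against Tex15WT edgeR and limma called 0 end tiles, beside 0.00121% of all tiles for edgeR and 0% for limma. At an unadjusted p under 0.05 edgeR gave 12 end tiles lower and 15 higher (0.188% and 0.35% of all tiles).

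The tiles were also read for repeated sequence, since the study is about retrotransposons and no repeat annotation was used here. Runs of 6 successive CpGs with the same spacing at 10 or more places were taken as a mark of repeated sequence, and 662 such patterns were found. How often such spacings recur outside repeats was not tested. At the ends, 108 of 4734 tiles (2.28%) held such a run, against 1.26% of the other autosomal tiles. Of the 30 large losses at the ends, 1 held one, and of the 11 within 100 kb 0 did. In the rest of the autosomes, 111 of the 1447 large losses (7.67%) held one. Tiles with few CpGs seldom can hold such a run, and the difference between ends and rest was not tested.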

How the data were processed

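Whole-genome bisulfite sequencing reads an unmethylated cytosine as T and a methylated one as C. The authors deposited counts, per the file headers: the coverage and the C and T calls of each CpG cytosine in 6 samples, raw and on separate strands. The build mm9 and the tools BSMAP, Bismark and methylKit are named in the submitters' processing notes. Tool versions and removal of PCR duplicates were not given in the sources used here. Without molecular identifiers, PCR copies of 1 molecule are counted as separate calls, so counts of calls overstate the precision.

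From these counts, calls were summed over strands and over tiles of 1 kb (at least 3 CpGs and 10 calls in each sample). Levels were compared over samples with two-sided exact permutation tests (genotypes) or sign-flip tests (end against rest within a sample). Each sample is a separate pup, per the labels' protocols, so p-values measure the spread between pups. A sign-flip p thus shows only that the pups agree on a difference between regions. It does not measure whether the ends differ from other regions by more than regions differ among themselves. Tiles and 2 Mb windows of the whole table were fitted with edgeR 4.0.16 (glmQLFit and glmQLFTest, methylated and unmethylated counts, an intercept per sample, all 6 samples) in R 4.3.3, with Benjamini-Hochberg adjustment over all tiles or windows. The fit shared 1 spread over all tiles, and 1 over all windows, so the p of a tile or window does not measure how far the pups differed there. The script was run on simulated counts that had no spread between pups beyond that of counting. The data do have such spread, so this run checks the code and not the power or the error rate here. Alternatives were limma 3.58.1 (log2 of C over T calls with a pseudocount of 1), 30 calls, 10 CpGs, ends of 1 Mb, every cytosine without a tile filter, a margin of 50 points, removal of the top 0.1% of coverage, and leaving out each sample. The weighting by mean over tiles was also an alternative. Named tiles were the 8 largest decreases and the 4 largest increases of the Tex15KO mean from the control mean with both Tex15KO samples beyond all 4 controls, every tile called by edgeR, and the 3 longest unmethylated stretches. The regions, bins and lists were chosen with earlier results of these data known.

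No genome of the build mm9 was used here. Promoters of 300 bases from RefSeq (GRCm38.p6) were placed where all CpGs listed in a window coincided with CpGs of the sequence, with at least 10 of them and at 1 place only. Figures were drawn with matplotlib 3.10.9, and tests over samples were run in Python 3.11.15 with numpy 2.4.6.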

Additional observations from a re-analysis of the deposited data

Results flagged for a closer look

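The difference between the ends and the rest of the autosomes, by calls, had opposite signs in Tex15KO and Tex15HT. It was -2.36 points in Tex15KO 3 and -0.28 in Tex15KO 16, against 3.08 and 1.51 in Tex15HT, and 1.70 and -0.66 in Tex15WT. The Tex15KO mean minus the Tex15HT mean was -3.62 points (-1.32 in Tex15KO and 2.30 in Tex15HT), and this difference was not tested. As the mean over tiles, all samples had the same sign, -4.82 and -4.58 points in Tex15KO, -4.52 and -4.64 in Tex15HT, and -4.42 and -4.38 in Tex15WT.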

How the results depend on the processing

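Values by calls at the ends turned round with the settings, and none of these genotype differences could reach an exact p of 0.05. Tex15KO against Tex15WT was -0.55 points with 30 calls and -0.0033 over every cytosine. Tex15KO against the controls was -0.34 and -0.51. Tex15KO against Tex15HT was -0.12, -1.01, and -0.23 as the mean over tiles. Tex15HT against Tex15WT was -0.43 with 30 calls, -0.18 with 10 CpGs and -0.11 for ends of 1 Mb. Leaving out 1 sample gave -0.37 to 4.66, -0.63 to 4.51, -0.88 to 4.35 and -1.14 to 1.39 in these 4 comparisons. The end against the rest was -14.8 with 30 calls, -9.23 with 10 CpGs, -4.56 as the mean over tiles, -10.6 without the top coverage and -5.05 for ends of 1 Mb, but 3.63 over every cytosine (exact sign-flip test, p = 0.0312 each). At equal CpG number it was 2.23, -0.71, -1.41, -1.56, -1.17 and 0.29 in these settings. Within 500 kb against 1500 to 2000 kb it was 3.12 with 30 calls and -7.49 over every cytosine. The end against the rest compared between Tex15KO and the controls was 0.16 with 30 calls. The mean over tiles without Tex15KO 3, added after the data were seen, gave -0.50 (Tex15KO against Tex15HT), -3.37 (end against rest), -1.30 (equal CpG number) and -8.66 (near against far). With 5 samples the smallest exact sign-flip p is 0.0625, and there end against rest at equal CpG number ranged over 1.07 to 1.95, near against far over -14.9 to -13.6, and end against rest over 0.34 to 1.96.

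Large losses at the ends numbered 12 with a margin of 50 points (0.253%, against 0.175% in the rest). The order of ends and rest turned round with 30 calls (2 tiles, 0.305% against 0.517%) and with 10 CpGs (7 tiles, 0.456% against 0.595%). Without 1 sample they numbered 34 to 266. Of these, 66 came without Tex15KO 3 (0.817% against 0.623%) and 266 without Tex15KO 16 (5.59% against 5.38%, with 94 large gains at the ends). End tiles called in Tex15KO against Tex15WT numbered 9 by limma, all lower, and 0 to 236 in edgeR without 1 sample. Against the controls they numbered 3 with 10 CpGs (0.196%, beside 0.151% of all tiles), 15 by limma, all lower, and 0 to 314 in edgeR without 1 sample. The highest counts came without Tex15KO 16: 236 (151 lower, 85 higher) were 4.96% of the end tiles beside 4.76% of all, and 314 (199 lower, 115 higher) were 6.6% beside 6.69%. Without Tex15KO 3 the counts were 9 and 15, all lower, 0.111% beside 0.0895% and 0.186% beside 0.159%. With 30 calls 1 end window was called lower in each comparison, chromosome 1 against Tex15WT (beside 2.81% of all windows) and chromosome 9 against the controls (beside 3.44%). Without 1 sample the end windows called numbered 0 to 4 against Tex15WT and 0 to 5 against the controls. The 4 and 5 came without Tex15KO 16 and were all higher, beside 26.0% and 27.5% of all windows. The causes of these shifts were not tested. No paired analysis was made. The replicate numbers are those of single pups, and the litter of each pup was not among the labels used here. The depth of 10 calls limits a tile level to steps of several points, and 2 pups per group limit every comparison.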
